A study of Homo sapiens with 12 samples.

Results

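The 2′-5′-oligoadenylate synthetase (OAS) family consisted of 4 genes, OAS1, OAS2, OAS3 and OASL, chosen by symbol from the 60099 genes listed, together with their 29 transcripts of the 201521 listed. Total RNA depleted of ribosomal RNA was sequenced from Cal27 and HN30 cells, which are head and neck squamous cell carcinoma (HNSCC) lines, after 24 h with interferon-alpha (IFNα) or without it. The letters A, B and C marked the untreated, 20 ng/ml and 200 ng/ml samples of line set A-C. The letters D, E and F marked the same doses in line set D-F, with 2 samples per letter (A1, A2 and so on) and 12 in all. Which line set was Cal27 and which HN30 was not given in the sources used here. The labels give no genetic change in either line, and each line came from a single tumor.

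OAS1, OAS2 and OAS3 are interferon-induced enzymes that bind double-stranded RNA (dsRNA) and link ATP into 2′-5′ oligoadenylates, known as 2-5A. OAS1 has a single catalytic unit, whereas OAS2 and OAS3 carry repeated units. 2-5A is a second messenger of the antiviral response. OASL resembles the enzymes but does not make 2-5A, carries ubiquitin-like domains at its end and acts on the sensors RIG-I and cGAS.

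OAS1 (ENSG00000089127), OAS3 (ENSG00000111331) and OAS2 (ENSG00000111335) lay in that order on the plus strand of chromosome 12, in GRCh38 coordinates. OAS1 spanned positions 112906777 to 112933222, OAS3 112938352 to 112973249 and OAS2 112978395 to 113011723. OAS1 and OAS3 were 5129 bases apart and OAS3 and OAS2 5145 bases apart. OASL (ENSG00000135114) stood alone on the minus strand of the same chromosome at 121019111 to 121039242, with 8007387 bases between it and OAS2. The antisense gene AC004551.1 overlapped OAS1, OAS3 and OAS2 on the opposite strand and had 0 counts in all 12 samples. The library kit kept the strand, and whether counting used it was not given in the sources used here. RPH3A, the nearest coding gene before OAS1, had 0 counts in all 12 samples, and DTX1, the nearest coding gene after OAS2, had at most 4.

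RefSeq promoter sequences (GRCh38.p14, 250 bases before to 50 after the start) were at hand for OAS1 and OAS3. Both strands were searched for GAAANNGAAA, the core of the interferon-stimulated response element (ISRE) that the factor ISGF3 binds, for the closer pair GAAANGAAA, and for TTCNNNGAA, the gamma-activated site (GAS). The windows shown hold the GAAA pairs nearest the starts of these genes and are given to let the gap lengths be compared, with the match in capitals, on the plus strand.
OAS1, chr12:112906935-112906964: cccttctgagGAAACGAAAccaacagcagt
OAS3, chr12:112938321-112938350: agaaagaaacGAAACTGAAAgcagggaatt
OAS3, chr12:112938452-112938481: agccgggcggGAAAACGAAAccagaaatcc
The OAS1 match was GAAANGAAA and began 17 bases before the RefSeq start. The OAS3 matches were GAAANNGAAA and began 143 and 12 bases before the start. The OAS3 match at 143 bases overlapped a GAAANGAAA match that began at 148 bases. OAS1 held no GAAANNGAAA and a TTCNNNGAA match at 168 bases before the start, and OAS3 held no TTCNNNGAA. GAAANNGAAA was present in 3.57% of the 35116 promoters in the table, GAAANGAAA in 3.12% and TTCNNNGAA in 7.66%. These are matches of letters and not measured binding, and the lack of a match does not show that a promoter lacks such an element. The RefSeq start lay 185 bases downstream of the outermost annotated start of OAS1 and 122 bases downstream of that of OAS3, and OAS2 and OASL had no entry.

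Transcripts were annotated from GENCODE 29, in which all 29 had the deposited positions. OAS1 had 11 transcripts, OAS2 had 7, OAS3 had 7 and OASL had 4. The protein forms of OAS1 share their start and part at the same point of the coding sequence. OAS1-201 (400 codons) encodes p46, the form with a prenylation signal that places it on membranes. OAS1-203 (364 codons) encodes p42 and OAS1-202 (414 codons) encodes p48. The coding sequences around that point are shown because the transcript shares reported for OAS1 turn on it. Coding bases shared by all forms shown are in lower case and the bases after that point in capitals.
OAS1-201: tcctggattctgctgGCTGAAAGCAACAGT
OAS1-203: tcctggattctgctgGTGAGACCTCCTGCT
OAS1-202: tcctggattctgctgACCCAGCACACTCCA
The same is shown for OAS2, where OAS2-202 (687 codons) encodes p69 and OAS2-201 (719 codons) encodes p71.
OAS2-202: ccttggaaagtgccgGTAAAAGTCATCTAA
OAS2-201: ccttggaaagtgccgACAATGCAGACACCA
The OAS1 forms shared their opening 346 codons and the OAS2 forms their opening 683, and reads within those stretches could not tell these forms apart. Of all 31-base words in a transcript, 8.01% were found in OAS1-201 and in no other OAS1 transcript. That share was 1.69% for OAS1-202, 38.8% for OAS1-203, 24.7% for OAS2-202 and 0.335% for OAS2-201.

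Total counts per sample ran from 10517448 to 16056734. They were 12670755 to 16056734 in the untreated samples, 11174407 to 14865450 at 20 ng/ml, which overlapped them, and 10517448 to 11854183 at 200 ng/ml, which did not. Log expression correlated at 0.947 to 0.981 within line sets and at 0.749 to 0.785 between them, over 13034 genes with a mean count of at least 50. In TPM, which counts reads per length and scales them to the library, the 8 epithelial markers together had 1739 to 3399, although KRT14 was at most 0.254 TPM in line set D-F. The leukocyte genes PTPRC and CD3E reached at most 0.0425 TPM and 0 TPM. CD68, also listed as a leukocyte marker, moved with dose, from 5.29 TPM at the lowest to 39.6 TPM at the highest, and took up nearly all of the 4 leukocyte markers' summed TPM, which ran from 5.34 to 10.2 in untreated samples and from 17.4 to 39.6 at 200 ng/ml. The 4 fibroblast markers summed to at most 14.0 TPM. The endothelial marker CDH5 was at 15.2 to 21.7 TPM in samples A to C and at most 0.156 TPM in D to F, while PECAM1 reached at most 0.576 TPM and VWF 0.414 TPM. The part of CD68 and of depth, both of which moved with dose, in the results was not tested. Nothing in the labels said that the 2 samples of a letter came from separate cultures, so p-values measure the spread between these samples, which may be technical.

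All 4 OAS genes rose with IFNα at both doses. The question was which genes of the family responded to a high and to a low dose of IFNα, and by how much. At 200 ng/ml OAS2 rose 43.9-fold, OAS1 16.1-fold, OASL 13.9-fold and OAS3 7.78-fold over the untreated samples, averaged over the line sets. In bulk libraries, more RNA per cell and more cells that express a gene cannot be told apart. TPM, which is corrected for transcript length, is given below for every sample.

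OAS1 was at 22.0 and 17.9 TPM in A, 163 and 156 TPM in B, and 233 and 209 TPM in C. In the other line set, OAS1 was at 13.8 and 11.4 TPM in D, 219 and 213 TPM in E, and 284 and 271 TPM in F. No treated sample came within the range of the untreated ones. The log2 change was 4.01 ± 0.07 (SE, n = 4 against 4) at 200 ng/ml and 3.64 ± 0.07 at 20 ng/ml (edgeR quasi-likelihood test, adjusted p = 8.05e-10 and 2.05e-09).

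OAS2, a synthetase with repeated units, was at 26.2 and 27.1 TPM in A, 297 and 282 TPM in B, and 395 and 511 TPM in C. It was at 8.21 and 6.69 TPM in D, 251 and 270 TPM in E, and 335 and 325 TPM in F. The untreated D samples were the lowest of all and the C samples the highest. The log2 fold change from counts was 5.46 ± 0.11 (SE) at 200 ng/ml and 4.96 ± 0.11 at 20 ng/ml (edgeR, adjusted p = 1.91e-09 and 3.87e-09). From TPM, as the mean difference of log2(TPM + 0.1), the change at 200 ng/ml was 4.76, or 27.1-fold in place of 43.9-fold. The values of a short OAS2 transcript that moves with this gap are given with the transcripts.

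OAS3, the largest synthetase of the family, was the highest member throughout. It was at 93.8 and 98.7 TPM in A, 478 and 477 TPM in B, and 570 and 582 TPM in C. It was at 78.6 and 73.1 TPM in D, 666 TPM in both E samples, and 743 and 735 TPM in F. By mean TPM it ranked 1577 of 60099 genes without IFNα, 127 at 20 ng/ml and 104 at 200 ng/ml. Its fold change was the smallest of the 4, with a log2 value of 2.96 ± 0.05 (SE) at 200 ng/ml and 2.76 ± 0.05 at 20 ng/ml (edgeR, adjusted p = 8.05e-10 and 2.05e-09).

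OASL was at 11.2 and 10.8 TPM in A, 40.4 and 47.4 TPM in B, and 73.2 and 71.3 TPM in C. It was at 3.38 and 3.23 TPM in D, 75.7 and 70.2 TPM in E, and 104 and 99.4 TPM in F. OASL, the member without synthetase activity, was the lowest of the 4 in all 12 samples and its ranges at each dose did not overlap those of the untreated samples. The log2 fold change was 3.80 ± 0.10 (SE) at 200 ng/ml and 3.21 ± 0.10 at 20 ng/ml (edgeR, adjusted p = 1.43e-08 and 5.50e-08).

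All 4 members passed the call rule of an adjusted p of at most 0.05 and at least 2-fold, at both doses. Over the 19944 genes tested, 1.58% were called higher at 200 ng/ml and 0.963% at 20 ng/ml. The median log2 fold change of the members at 200 ng/ml was 3.90, against -0.01 over all genes tested. Among the 316 genes called higher at 200 ng/ml, OAS2 ranked 6 by log2 fold change, OAS1 38, OASL 45 and OAS3 72. The doses shared their untreated samples, so that the values for each dose are set side by side only. All 4 calls were kept at each dose in every fit tried, including those without any one sample.

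**Figure D1:**
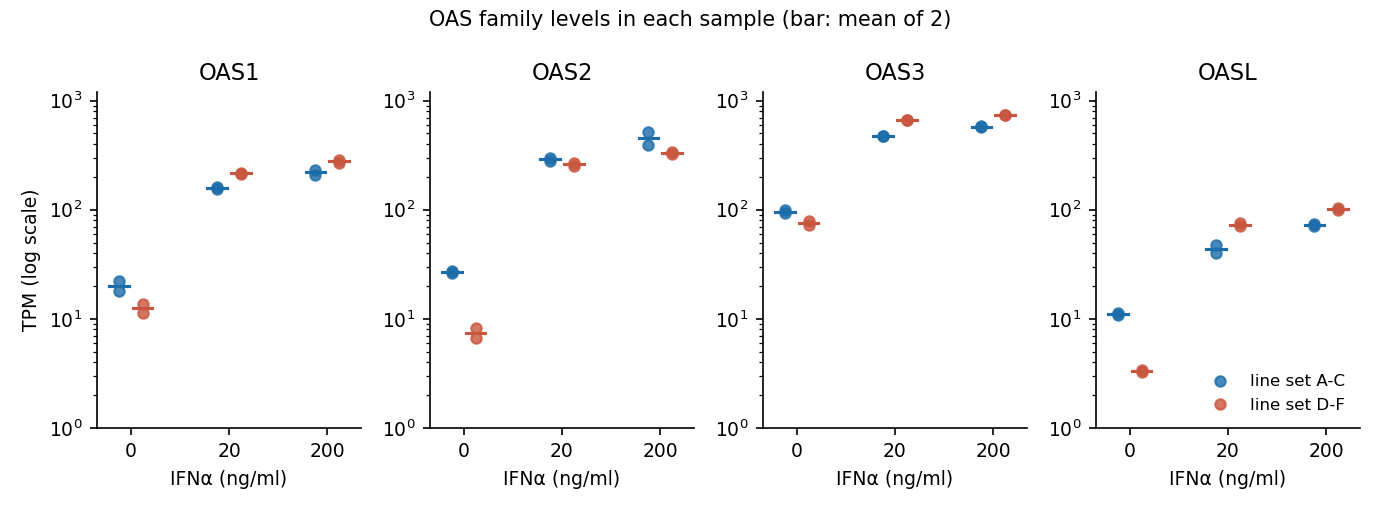
TPM of each OAS gene (vertical log axis) at 0, 20 and 200 ng/ml IFNα, with 1 point per sample, a bar at the mean of 2, and line sets A-C in blue and D-F in red. The 8 treated samples lie above the 4 untreated ones for every OAS gene.

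Between 20 and 200 ng/ml all 4 members were higher at the higher dose, and no difference passed the adjusted test. The mean TPM at 20 ng/ml was 72.1% of that at 200 ng/ml for OAS1 in the A-C samples and 77.8% in the D-F samples. It was 63.9% and 79.0% for OAS2, 82.8% and 90.2% for OAS3, and 60.8% and 71.7% for OASL. The log2 difference between the doses was 0.58 ± 0.09 (SE) for OASL, 0.50 ± 0.09 for OAS2, 0.37 ± 0.06 for OAS1 and 0.19 ± 0.05 for OAS3. In edgeR, 0 of 4 members passed an adjusted p of 0.05, with OASL and OAS1 at 0.0546, OAS2 at 0.107 and OAS3 at 0.270. All 4 had an unadjusted p under 0.05, and the 95% intervals lay above 0, from 0.38 to 0.79 for OASL and from 0.08 to 0.30 for OAS3. Over all genes 0.135% were called between the doses. DESeq2 called 3 of 4 members (OAS1, OAS2 and OASL). Without C1 edgeR called OAS2, and without D1 or without D2 it called OASL, 1 member in each case, while without any other sample it called 0.

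The line sets differed in how far the OAS genes rose, and the question was whether the lines responded alike. In line set D-F the fold rise was larger for every member at both doses. For OAS2 this went with lower levels in D-F, at a mean of 7.45 TPM in D and 330 in F against 26.7 in A and 453 in C. At 200 ng/ml OAS2 rose 93.3-fold in D-F and 20.6-fold in A-C, and OASL rose 29-fold and 6.64-fold. OAS1 rose 22.7-fold and 11.4-fold, and OAS3 9.41-fold and 6.42-fold. At 20 ng/ml OAS2 rose 73.7-fold and 13.1-fold, OASL 22.2-fold and 3.88-fold, OAS1 18.2-fold and 8.50-fold, and OAS3 8.58-fold and 5.38-fold. CD68 also rose more in D-F, 6.57-fold against 1.77-fold at 200 ng/ml (edgeR interaction 1.89 on the log2 scale, adjusted p = 0.0126), and its part in these differences was not tested, while PTPRC and CD3E were at or near 0 in all samples.

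The difference of these responses on the log2 scale at 200 ng/ml was 2.18 ± 0.20 (SE) for OAS2 and 2.13 ± 0.20 for OASL (edgeR interaction, adjusted p = 0.00232 for both). From TPM, as mean differences of log2(TPM + 0.1), OAS2 rose by 5.46 in D-F and 4.07 in A-C, a smaller gap than in counts, and OASL by 4.90 and 2.70. The edgeR difference was 0.99 ± 0.12 for OAS1 (adjusted p = 0.00671) and 0.55 ± 0.10 for OAS3 (adjusted p = 0.0295). All 4 members passed, against 1.88% of the genes tested. At 20 ng/ml all 4 passed as well, against 0.371% of genes, with differences of 2.51 for OASL, 2.49 for OAS2, 1.10 for OAS1 and 0.67 for OAS3. The call on OAS3 was the weak one. At 200 ng/ml it was kept in 3 of 12 fits without 1 sample, with adjusted p from 0.0171 to 0.107, and at 20 ng/ml in 4 of 12, with adjusted p from 0.0132 to 0.102. It was lost at 200 ng/ml without A2, B1, B2, C2, D1, D2, E1, F1 or F2, and at 20 ng/ml without either sample of B, D, E or F.

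**Figure D2:**
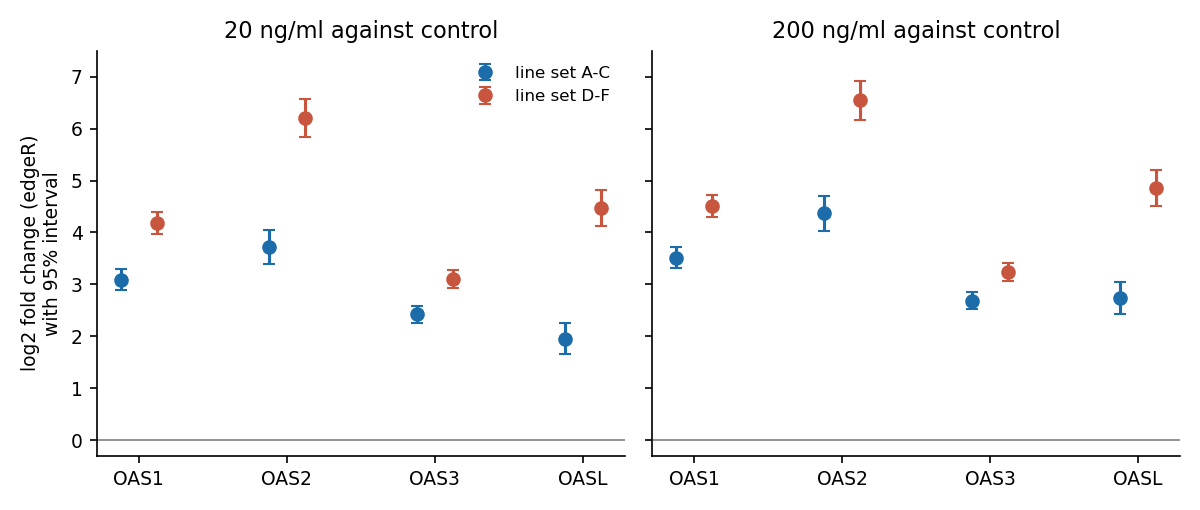
Log2 fold change of each OAS gene over the untreated samples of its own line set at 20 ng/ml (left) and 200 ng/ml (right), with 95% intervals from edgeR and line sets A-C in blue and D-F in red. OAS2 and OASL stand farthest apart, at 6.54 against 4.37 and 4.86 against 2.73 on the log2 scale at 200 ng/ml in this fit to counts.

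The untreated samples were compared next. Without IFNα all 4 genes were lower in D than in A. Counts of OAS2 were 6.91-fold lower in D than in A, those of OASL 3.74-fold lower, those of OAS1 1.85-fold lower and those of OAS3 1.3-fold lower (edgeR, adjusted p = 8.08e-07, 8.02e-06, 4.32e-05 and 0.00157). On mean TPM the ratio of A to D was 3.58 for OAS2 and 3.34 for OASL. OAS2 and OASL passed the 2-fold rule and OAS1 and OAS3 did not. That rule was met by 26.6% of all genes in 1 direction or the other, so that 2 of 4 is read against a high background.

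After IFNα the order of the lines changed for 3 of the genes. OAS1, OAS3 and OASL were lower in D than in A but higher in E than in B and in F than in C, with no overlap between the samples compared. OAS2 stayed lower in line set D-F at every dose. The 6 letters ordered by mean TPM as D, A, B, E, C and F for OAS1, and the neighbours E and C overlapped, at 216 and 221 TPM. The order was D, A, E, B, F and C for OAS2, with no overlap. It was D, A, B, C, E and F for OAS3 and for OASL. For OAS3 no neighbours overlapped, and for OASL C and E did, at 72.3 and 72.9 TPM.

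Of 4 genes described from the list for the 2-5A pathway, PNPT1, a mitochondrial exoribonuclease, was the only gene called higher at 200 ng/ml, by 3.55-fold (edgeR, adjusted p = 6.81e-08). AKAP7, a kinase anchor with a domain that can cleave 2-5A, differed by 1.59-fold (adjusted p = 0.0283) and so passed the p threshold without reaching 2-fold. PDE12, a mitochondrial phosphodiesterase that degrades 2-5A, differed by 1.03-fold (adjusted p = 0.859). ABCE1, a ribosome recycling factor, had a log2 difference of -0.12 (adjusted p = 0.348). At 20 ng/ml 1 of the 4, PNPT1, was called. Over all genes tested, 1.58% were called higher at 200 ng/ml and 0.963% at 20 ng/ml.

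Of 11 genes of dsRNA sensing, 8 were called higher at 200 ng/ml and 7 at 20 ng/ml. Over all genes tested the shares called were 1.58% and 0.963%, and the lists were chosen with earlier results of these data known. ZBP1, a sensor of Z-form nucleic acid, rose 63.9-fold at 200 ng/ml. Its untreated samples were at 0.0259 to 0.446 TPM, so that fold rests on a very low untreated level. On the log2 scale DDX58, the gene of RIG-I, rose by 2.84, IFIH1, the gene of MDA5, by 2.75, and their relative DHX58 by 2.62. DDX60 rose by 2.51, TLR3, the endosomal dsRNA receptor, by 1.86, EIF2AK2, the gene of the kinase PKR, by 1.70, and ADAR, the adenosine deaminase that edits dsRNA, by 1.17 (edgeR, highest adjusted p = 0.000207). ADAR was the gene under 2-fold at 20 ng/ml, at 1.96-fold. MAVS, the adaptor of RIG-I and MDA5, was 1.36-fold lower at 200 ng/ml (adjusted p = 0.000355), less than the 2-fold rule asks. DHX36 and PRKRA did not pass, with log2 differences of 0.17 and -0.17. Together PNPT1 and these 8 genes were called higher at 200 ng/ml, and the count of 9 was the same in every fit tried.

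Of 10 genes from the receptor to ISGF3, 4 were called higher at each dose, against 1.58% of all genes tested at 200 ng/ml and 0.963% at 20 ng/ml. At 200 ng/ml USP18, which damps receptor signalling, rose 17.9-fold, IRF7 7.01-fold, IRF9 6.45-fold and STAT2 3.49-fold. IRF2 and IRF1 passed the p threshold at 1.65-fold and 1.32-fold. The receptor chains IFNAR1 and IFNAR2 and the kinases JAK1 and TYK2 did not pass, with log2 differences of -0.11, 0.10, 0.02 and 0.02. Of the 4 genes listed for cGAS and STING, 0 reached 2-fold in edgeR. MB21D1, the gene of cGAS, and TBK1 passed the p threshold at 1.54-fold and 1.35-fold, while TMEM173, the gene of STING, and IRF3 did not pass, with log2 differences of -0.18 and 0.06.

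**Figure D3:**
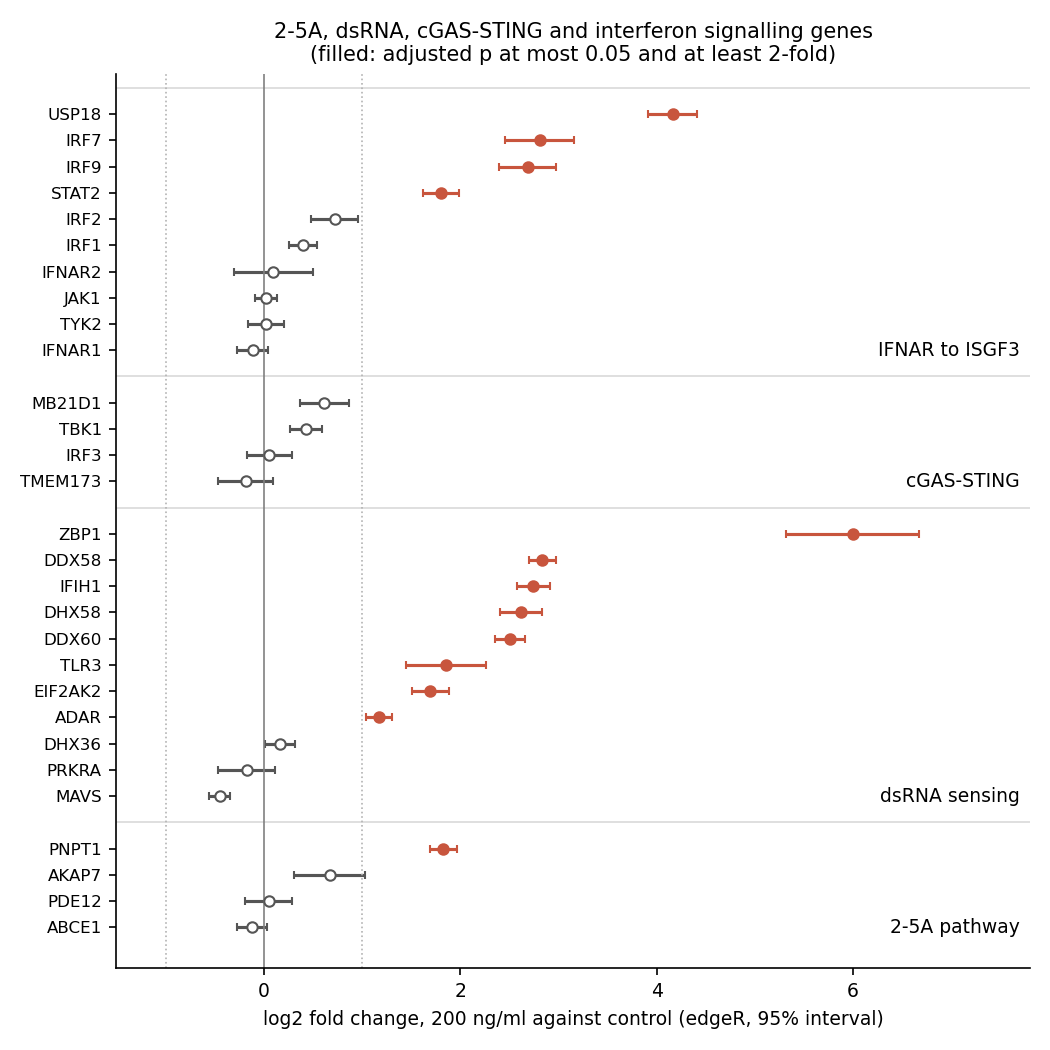
Log2 fold change at 200 ng/ml over control with 95% intervals from edgeR for the genes described from 4 lists, with filled points for an adjusted p of at most 0.05 and at least 2-fold and dotted lines at 2-fold either way. PNPT1 is the filled point of the 2-5A pathway list.

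A few of these genes also differed between the line sets in their response at 200 ng/ml, as did 1.88% of all genes tested. Most did not pass, among them DHX58, IRF7 and DDX58 (edgeR interaction, adjusted p = 0.0701, 0.123 and 0.154). IFIH1 and USP18 rose more in D-F, by 0.78 and 1.24 on the log2 scale (edgeR interaction, adjusted p = 0.0314 and 0.0252), the same direction as the OAS genes. EIF2AK2 rose less in D-F, with a difference of -0.86 (adjusted p = 0.0391).

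Genes with the most similar pattern were named by Pearson's r of log2 CPM (counts scaled to library size) over the 12 samples, among the genes tested. For OAS1 they included IFI44 (r = 0.999), IFIT1 (0.998), PARP14 (0.997) and OAS3 (0.997). For OAS3 they included IFI44 (0.999), OAS1 (0.997), PARP14 (0.996) and IFIH1 (0.996). OAS2 was most similar to IFIT3 (0.997), IFI6 (0.996), PARP9 (0.995), DTX3L (0.994) and IRF9 (0.994). OASL was most similar to PARP12 (0.991), BLZF1 (0.989), DTX3L (0.988), SLFN5 (0.988) and IFIT3 (0.986). Between members, r was highest for OAS1 with OAS3 (0.997) and lowest for OAS2 with OAS3 (0.962). The 12 points share 3 doses and 2 lines, so the values are a description.

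The mean shares of the members in the family differed between doses, in a design too small for any share to pass 0.05. The summed TPM of the 4 genes was 153 and 155 in A, 978 and 962 in B, 1271 and 1374 in C, 104 and 94.4 in D, 1212 and 1220 in E, and 1466 and 1430 in F. OAS3 held 69.5% ± 8.2 (SD, n = 4) of it without IFNα, 52.0% ± 3.2 at 20 ng/ml and 47.3% ± 4.4 at 200 ng/ml. OAS2 held 12.4% ± 5.7, 25.6% ± 4.9 and 28.5% ± 7.0. OAS1 held 12.8% ± 1.3, 17.1% ± 0.8 and 18.0% ± 1.9, and OASL held 5.25% ± 2.21, 5.26% ± 0.93 and 6.25% ± 0.92. With doses exchanged within line sets, the exact permutation test allows a two-sided p no smaller than 0.0556, and OAS1, OAS2 and OAS3 were at that limit while OASL was at 0.333. A fall in 1 share goes with a rise in others, so these values are not independent of each other.

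Between line sets, OAS2 held a smaller share of the summed TPM in D-F, by 9.87 percentage points, and OAS3 a larger share, by 9.0 points. Both had an exact permutation p of 0.00926, the smallest that 216 arrangements allow, and an adjusted p of 0.0185 over 4 genes. The 4 shares add up to the whole, so the smaller OAS2 share and the larger OAS3 share are not separate results. OAS1 differed by 1.14 points (exact permutation p = 0.176) and OASL by -0.27 points (p = 0.704). The OAS2 share was 17.1% and 17.6% in A, 30.4% and 29.3% in B, and 31.1% and 37.2% in C. It was 7.90% and 7.09% in D, 20.7% and 22.1% in E, and 22.8% and 22.7% in F. At each dose the line sets did not overlap. Without the untreated samples 0 genes passed, since 36 arrangements cannot give a p below 0.0556.

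**Figure D4:**
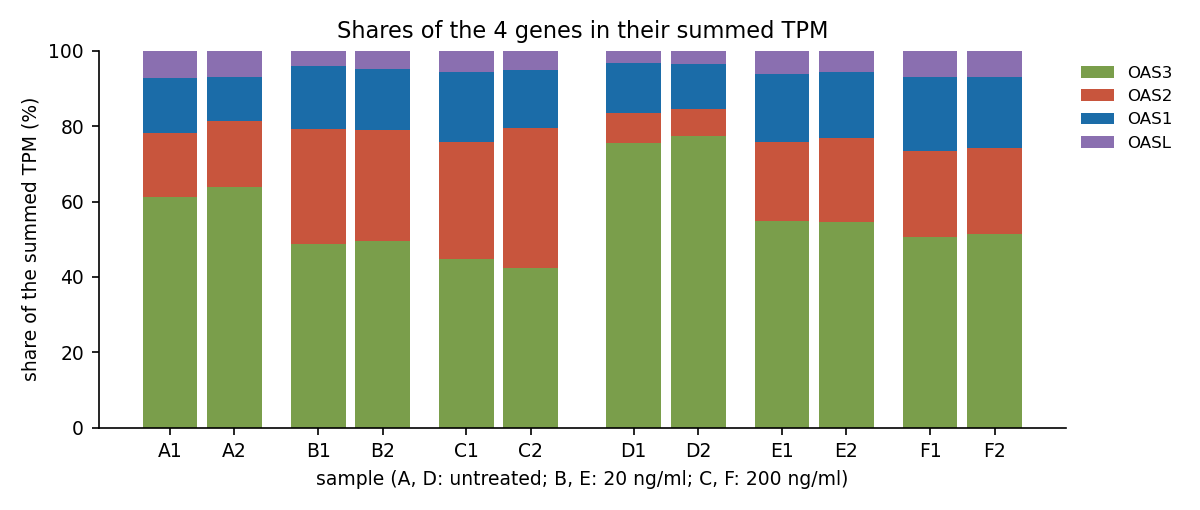
Share of each OAS gene in the summed TPM of the 4 genes (vertical axis, 0 to 100%) in each of the 12 samples, grouped by letter. OAS3 takes 61.2% to 77.5% in the untreated samples and 42.4% to 51.4% at 200 ng/ml, while the OAS2 share grows.

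At the level of transcripts, 24 of the 29 passed the filter on low counts. All 24 had a positive log2 fold change at both doses, and 13 were called higher at 200 ng/ml and 11 at 20 ng/ml, against 0.343% and 0.240% of the 75876 transcripts tested. OAS2-207, OAS2-205 and OAS3-202 had 0 counts in every untreated sample and passed the filter through treated samples alone. Their change could not be negative, so their sign is no result, and OAS2-207 is among the transcripts called at both doses. OAS2-201 (at most 1 untreated count), OAS1-210 (2 to 7) and OAS1-203 (4 to 16) also needed treated samples to pass the filter, and were called at both doses. The same held for OAS1-208 (0 to 2) and OAS3-204 (4 to 7), which were not called. The number of positive signs and of calls was therefore partly set by the filter. Transcripts of one gene share sequence, so their calls are not independent of each other. The count at 20 ng/ml fell to 7 without any one sample of B, E or F and to 8 without any one of A, C or D. At 200 ng/ml it was 9 to 12 without 1 sample.

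OAS1-201 (p46) was the main OAS1 transcript in every sample. It was at 10.9 and 14.0 TPM in A, 123 and 108 in B, 155 and 145 in C, 6.76 and 7.26 in D, 153 and 159 in E, and 195 and 191 in F. It rose by 4.09 ± 0.14 (SE) on the log2 scale at 200 ng/ml (edgeR, adjusted p = 4.2e-05). It held 68.2% ± 10.3 (SD, n = 6) of OAS1 TPM in the A-C samples and 66.1% ± 9.0 in the D-F samples. OAS1-203 (p42) held 3.58% ± 0.99 and 3.31% ± 1.17, and rose by 3.94 ± 0.47 (SE, adjusted p = 0.0147). OAS1-202 (p48) held 7.31% in A1 and at most 1.57% in the other 11 samples, and was at 0 in A2, C2, D1 and D2. Its log2 difference of 4.05 ± 1.77 (SE) did not pass (adjusted p = 0.576). p46 had the most RNA of the 3 forms in every sample, as far as the estimates separate them.

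Of the other OAS1 transcripts, OAS1-211 and OAS1-205, which retains an intron, held 5.21% to 20.5% and 0.53% to 11.99% of OAS1 TPM over the 12 samples. OAS1-205 rose by 4.60 ± 0.64 and OAS1-211 by 3.20 ± 0.49 on the log2 scale at 200 ng/ml (edgeR, adjusted p = 0.0280 and 0.0406). OAS1-206 had no 31-base word of its own and a log2 difference of 1.05 ± 0.38 (adjusted p = 0.475).

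For OAS2, the full-length transcript OAS2-202 (p69) was at 13.6 and 13.5 TPM in A, 213 and 207 in B, 281 and 372 in C, 2.29 and 1.27 in D, 197 and 200 in E, and 271 and 245 in F. It rose by 5.79 ± 0.20 (SE) on the log2 scale at 200 ng/ml (edgeR, adjusted p = 4.2e-05). OAS2-201 (p71) was at 0 to 0.03 TPM in the untreated samples and 2.18 to 4.09 TPM in the treated ones, at most 1.63% of OAS2 TPM. OAS2-207, a coding transcript of 726 codons, shares its opening 683 codons with OAS2-202, and 1.04% of its 31-base words were found in no other OAS2 transcript. It held 5.12% to 10.2% of OAS2 TPM at 20 ng/ml and 5.32% to 9.60% at 200 ng/ml. OAS2-207 had 0 counts in all 4 untreated samples, 341 to 566 counts at 20 ng/ml and 404 to 686 at 200 ng/ml. Against a floor of 3 counts per library it was at least 160-fold higher at 20 ng/ml and at least 230-fold higher at 200 ng/ml, given the deposited split of reads among OAS2 transcripts.

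The untreated D samples had a different OAS2 make-up from all others. OAS2-204, a retained-intron transcript of 521 bases, held 57.0% and 52.5% of OAS2 TPM in D1 and D2, 10.3% and 5.56% in A1 and A2, and 1.28% to 3.04% in the 8 treated samples. Behind those D values stood 22 and 17 counts. OAS2-204 itself was at 1.51 to 12.1 TPM over the 12 samples and its log2 difference of 1.27 ± 0.44 (SE) at 200 ng/ml did not pass (edgeR, adjusted p = 0.458). The total OAS2 count was 140 and 108 in D1 and D2, and 671 and 903 in A1 and A2. TPM divides by length, so that a read on a short transcript adds more to it than a read on a long one. On TPM of all transcripts OAS2 was 43.9-fold higher in F than in D, on TPM of the coding transcripts alone 92.9-fold, and in the edgeR fit to counts 93.3-fold. In line set A-C the same values were 16.8-fold, 17.5-fold and 20.6-fold. The choice of coding transcripts alone was made after these values were seen, and the part of OAS2-204 in the gap between the scales was not tested.

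OAS2-203, a coding transcript of 172 codons that shares its opening 149 codons with OAS2-202, held 37.7% and 44.6% of OAS2 TPM in A, and 15.9% to 18.7% in B and C. It held 15.1% and 28.5% in D, and 9.81% to 11.6% in E and F. At each dose the samples of D-F lay below those of A-C. The difference was -11.0 percentage points (exact permutation p = 0.00926, the smallest possible, adjusted p = 0.0694 over 15 transcripts).

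OAS3-201, the full-length transcript that encodes p100, held 78.4% to 90.9% of OAS3 TPM. It rose by 2.92 ± 0.05 (SE) on the log2 scale at 200 ng/ml (edgeR, adjusted p = 2.1e-06). The short coding transcripts OAS3-205 and OAS3-207 held 2.85% to 9.87% and 1.25% to 6.65%, and rose by 2.31 ± 0.20 and 2.72 ± 0.30 (adjusted p = 0.00342 and 0.0107). The OAS3-207 share was lower in D-F by 2.21 percentage points (exact permutation p = 0.00926, adjusted p = 0.0694).

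OASL-201, which encodes the full-length p59, held 54.5% to 95.3% of OASL TPM and rose by 3.75 ± 0.21 (SE) on the log2 scale at 200 ng/ml (edgeR, adjusted p = 0.000353). OASL-202, which encodes the shorter p30 and had no 31-base word of its own, held 0% to 28.5%, with 0 to 80 counts, and its log2 difference of 2.56 ± 0.90 did not pass (adjusted p = 0.463). OASL-203 held 0% to 18.8%, and its difference of 3.51 ± 0.95 did not pass either (adjusted p = 0.293). OASL-204 had 261 counts in F2, 22.9% of OASL TPM there, and 0 counts in the other 11 samples, F1 among them. It shared all but 1.68% of its 31-base words with other OASL transcripts.

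Over the 15 transcripts with at least 5% of their gene's TPM in the mean of any letter, 0 shares differed between line sets at an adjusted p of 0.05 in the exact permutation test, with 4 at an unadjusted p under 0.05 (OAS2-203, OAS3-201, OAS3-205 and OAS3-207). Without E1 or without E2 the count was 3, and without any other sample 0. For 200 ng/ml against control the test could not go below 0.0556, and 7 shares were at that limit, among them OAS2-202, higher by 38.0 percentage points, and OAS2-204, lower by 29.4 points. OAS2-207 was also among the 7. It had 0 counts in every untreated sample and entered the test through its treated shares alone, so its place at the limit is no result. Shares within a gene add up to the whole, so those of OAS2 are not separate results.

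**Figure D5:**
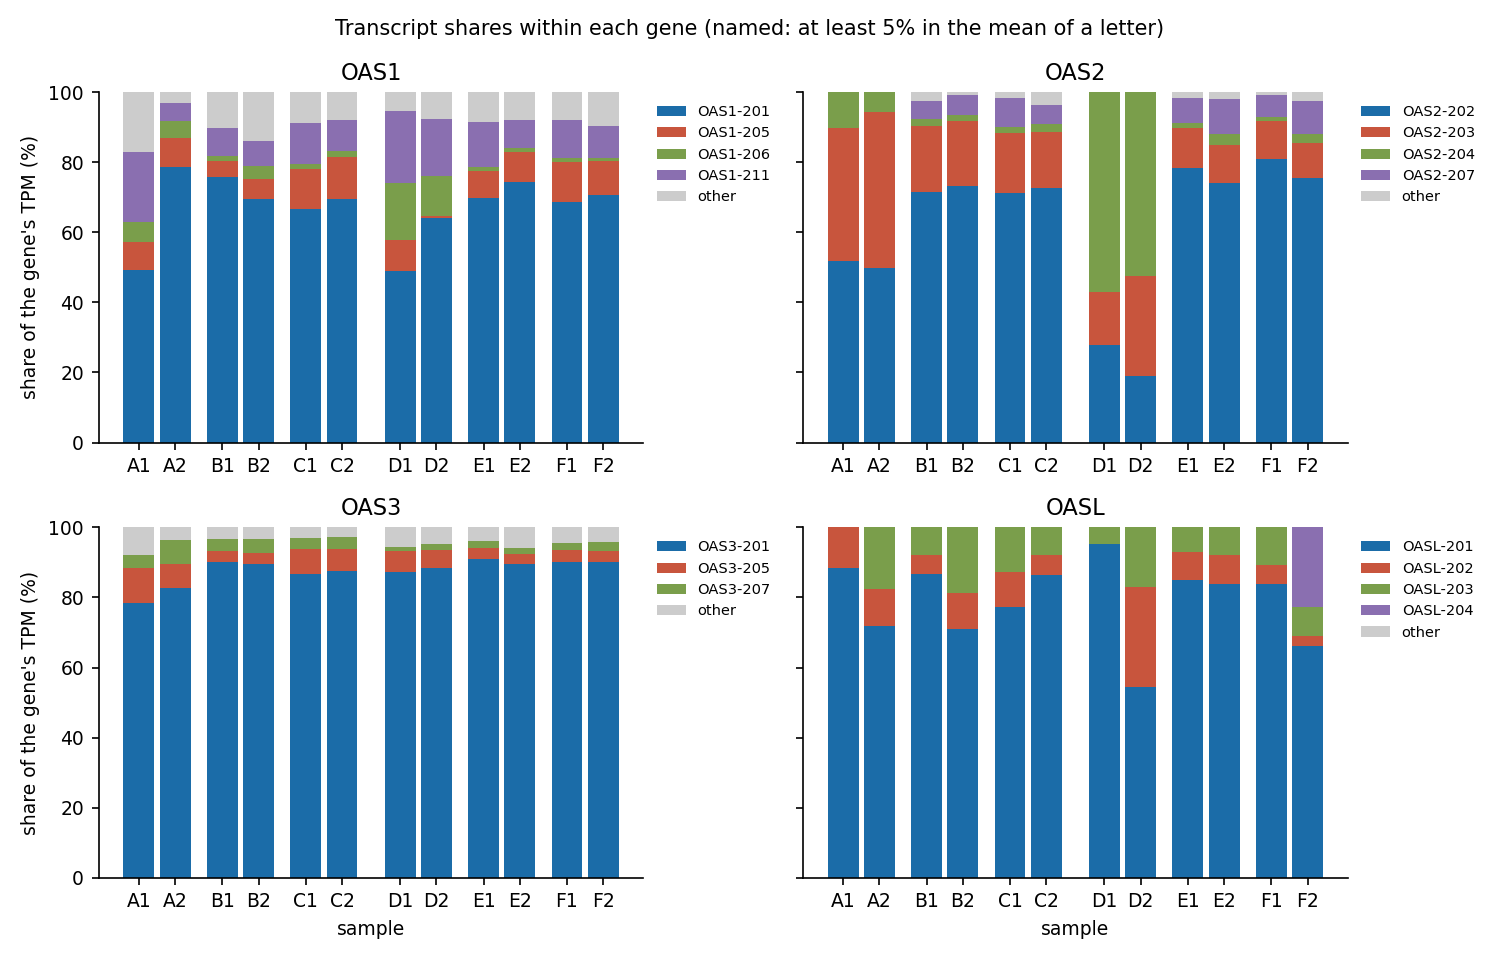
Share of each transcript in the TPM of its gene (vertical axis, 0 to 100%) in the 12 samples, for OAS1, OAS2, OAS3 and OASL, with transcripts under 5% in every letter's mean in grey. OAS2 in D1 and D2 stands out by its share of OAS2-204, and OASL-204 appears in F2.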

How the data were processed

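Estimated counts and TPM per gene and transcript were deposited by the authors. The submitters' processing notes name Trimmomatic 0.36, HISAT2 2.1.0, StringTie 1.3.3b and GRCh38.p10, with no roles. Transcripts of a gene overlap, so the split of reads among them is an estimate. The counts, which were whole numbers, were fitted for all 12 samples in 6 groups with the quasi-likelihood test of edgeR 4.0.16 (R 4.3.3, TMM, filterByExpr), with contrasts averaged over line sets and Benjamini-Hochberg adjustment over all 19944 genes or 75876 transcripts tested. A call required an adjusted p of at most 0.05 and at least 2-fold; for dose against dose and response differences it required the p alone. TPM shares were compared by exact two-sided permutation tests. The fits were tested on simulated data. Text names the 4 members, their transcripts with at least 5% share in a letter's mean, the listed pathway genes, and genes among the 5 most similar, except a few that are not reported here; other transcripts, neighbouring genes and motifs were chosen after values were seen. The members and lists were chosen with earlier results of these data known. Floors of 3 counts cover counting error only. Deviations of same-numbered samples from their group means correlated at -0.04 to 0.06, so no shared deviation by sample number was seen. That cannot show whether same-numbered samples were prepared together. Alternatives were RLE factors, library size alone, no filter, DESeq2 1.42.0, other designs, counts for TPM, and leaving out each sample.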

Additional observations from a re-analysis of the deposited data

Results flagged for a closer look

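The OAS genes were looked at again where their response differed between the line sets by an interaction term in edgeR. The fold rise was larger in D-F for all 4 genes at both doses, and its difference is given as D-F minus A-C on the log2 scale. At 20 ng/ml it was 1.10 ± 0.12 (SE) for OAS1, 2.49 ± 0.20 for OAS2, 0.67 ± 0.10 for OAS3 and 2.51 ± 0.20 for OASL (adjusted p = 0.00589, 0.000911, 0.0234 and 0.000911). At 200 ng/ml it was 0.99 ± 0.12 for OAS1, 2.18 ± 0.20 for OAS2, 0.55 ± 0.10 for OAS3 and 2.13 ± 0.20 for OASL (adjusted p = 0.00671, 0.00232, 0.0295 and 0.00232). The OAS3 call was kept in 4 of 12 fits without 1 sample at 20 ng/ml and in 3 of 12 at 200 ng/ml, and was lost with the replicate block (adjusted p = 0.0947 and 0.0763). Both doses use the same untreated samples, so the sets of values are not independent of each other. The untreated levels of OAS2 and OASL in D rest on 140 and 108 counts for OAS2 and 93 and 70 counts for OASL. From TPM, as mean differences of log2(TPM + 0.1), OAS2 rose by 5.46 in D-F and 4.07 in A-C at 200 ng/ml. Treated OAS2 was lower in D-F, at a mean of 330 TPM in F against 453 in C and 261 in E against 290 in B. Treated OAS1, OAS3 and OASL were higher in D-F.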

How the results depend on the processing

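The calls of 4 members at 200 ng/ml, 4 at 20 ng/ml, 2 between untreated line sets and 9 pathway genes were the same in every alternative. Members differing between doses numbered 0 in the fit reported, 2 with no filter on low counts, 1 with only the letters of the comparison, 3 by DESeq2, and 0 to 1 without 1 sample; the cause was not tested. Response differences between line sets numbered 3 to 4 members at either dose, OAS3 being the one lost, with the replicate block and with only the letters of the comparison too. Transcripts higher at 200 ng/ml numbered 13, and 20 at an unadjusted p, 8 with the replicate block, 8 with only the letters of the comparison and 9 to 12 without 1 sample. At 20 ng/ml they numbered 11, and 21 at an unadjusted p, 7 with the replicate block, 6 with 3 dose groups and no line set, 7 with only the letters of the comparison and 7 to 8 without 1 sample. Transcript shares that differed between line sets numbered 0 to 3 without 1 sample, shares at the smallest p for dose 7 to 10, and gene shares 2 to 3, or 0 with the untreated samples left out, where 0.0556 is the smallest p possible. Leaving out untreated samples could not be run for 200 ng/ml against control. The labels did not say whether same-numbered samples were prepared together. With the replicate block the OAS3 response difference, 0.55 and 0.67 at the higher and the lower dose, had an adjusted p of 0.0763 and 0.0947. No direction was reversed in any alternative. OAS1-202 and OASL-202 had at most 37 and 80 counts per sample, and 1.69% and 0% of their 31-base words were their own.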
